A study of Mus musculus with 12 samples.

Results

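The integrin chains are surface receptor genes. Members were listed by name, but with earlier results of these data known. The 10 listed were Itgb2, Itgal, Itgam, Itgax, Itga4, Itgb7, Itga5, Itgav, Itgb1 and Itgb3. Of these, 9 had a row among the 12483 genes of the deposited counts table, and all 9 passed the filter on low counts. Itgb3, the beta partner of alpha v and of platelet alpha IIb, had none and was not analysed here. Transcript levels were measured in RAW264.7 cells, a mouse macrophage line, as single-cell clones either wild type (WT) or deleted for an element named NRE1 (KO). CRISPR constructs on each side of NRE1 were introduced, and cells holding both were selected by GFP and puromycin. What NRE1 stands for is not spelled out in the labels, which also do not say whether the WT clones had carried the constructs or how the KO clones 1A and 1B are related. Each clone (WT 1, 2 and 3, KO 1A, 1B and 2) was assayed after 6 h in medium or in LPS (10 ng/mL) plus IFN-gamma (50 ng/mL), which gives 4 groups of 3 libraries. LPS comes from the outer membrane of Gram-negative bacteria and is sensed through Toll-like receptors, and IFN-gamma is a lymphocyte cytokine that activates macrophages.

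An integrin is a pair of an alpha and a beta chain, each crossing the membrane once, which binds matrix or another cell outside and talin and kindlin inside. Leukocytes carry the beta2 family, in which alpha L (LFA-1), alpha M (Mac-1, also complement receptor 3) and alpha X (CD11c) share the Itgb2 product. Alpha 4 pairs with beta1 or beta7 and binds VCAM-1, MAdCAM-1 and fibronectin, alpha 5 with beta1 binds fibronectin, and alpha v pairs with several beta chains to bind vitronectin and other RGD-bearing ligands. A chain without its partner is largely held inside the cell, so transcript levels do not give the surface amount of a pair.

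Libraries held 10624591 to 14388590 counts. The table has no gene named NRE1, so the deletion could not be read from it. All 10 macrophage markers examined were in the table, with a summed level from 8387 to 19683 CPM (counts per library scaled to a common size) in WT libraries and from 4713 to 14002 CPM in KO libraries. Their sum was 4962 CPM in KO 1A, 4713 CPM in KO 1B and 14002 CPM in KO 2 in medium. Lyz2 ran from 1790 to 10558 CPM over these 3 libraries, Csf1r from 1577 to 1897 CPM and Cd68 from 363 to 421 CPM. In medium the WT and KO means were 10038 and 4818 CPM for Lyz2, 2117 and 1691 for Csf1r, and 499 and 397 for Cd68. They were 120 and 16.9 CPM for Adgre1, 30.1 and 8.3 for Fcgr1, 17.7 and 3.22 for Cd63, and 177 and 141 for Spi1. Cd14, at 423 and 465 CPM, and Ptprc, at 349 and 351 CPM, were not lower in KO clones. Mertk rested on 9 and 2 counts summed over the medium libraries. The part of the marker sum in the results that follow was not tested. None of the 5 B cell and none of the 5 fibroblast markers had a row. Of the T or NK cell markers Lck alone had one, at 1.72 to 4.77 CPM in medium and 7.91 to 25.4 CPM after stimulation. S100a8 (neutrophils, up to 2.84 CPM) and Kit (mast cells, up to 3.38 CPM) were likewise the only rows of their lists. The 1A and 1B libraries of the KO clones stood nearest: the SD of log2 differences between them over genes was 0.18 in each condition, against 0.35 to 0.40 between either and KO 2 and 0.50 to 0.68 between WT clones. They differed by more than counting noise, as separate cultures of 1 clone could too, so whether the KO groups hold 3 independent clones or 2 is not known. They were counted separately, as labelled, and each genotype difference of a gene was recomputed with them summed as 1 clone. That fit called 3 genes higher and 13 lower in medium over all genes, against 43 and 105.

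The 250 bases before the annotated start were read for the 7 members that have a promoter entry in RefSeq (GRCm38.p6), and those of 4 members whose transcripts differed between genotypes or stood high in 1 clone are shown. Capitals mark exact matches, on either strand, to binding motifs of factors known from myeloid genes: PU.1 (GAGGAA), RUNX (TGTGGT), AP-1 (TGANTCA) and SP1 (GGGCGG). Itgam lies at chr7:128062390-128062639 (plus strand), Itgax at chr7:128129300-128129549 (plus strand), Itga4 at chr2:79255176-79255425 (plus strand) and Itgb7 at chr15:102231936-102232185 (minus strand).
Itgam promoter: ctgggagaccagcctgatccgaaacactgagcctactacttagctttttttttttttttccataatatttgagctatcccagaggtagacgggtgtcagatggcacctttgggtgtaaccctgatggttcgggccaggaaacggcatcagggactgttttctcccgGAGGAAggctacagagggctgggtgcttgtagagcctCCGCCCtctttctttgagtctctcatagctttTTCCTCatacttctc
Itgax promoter: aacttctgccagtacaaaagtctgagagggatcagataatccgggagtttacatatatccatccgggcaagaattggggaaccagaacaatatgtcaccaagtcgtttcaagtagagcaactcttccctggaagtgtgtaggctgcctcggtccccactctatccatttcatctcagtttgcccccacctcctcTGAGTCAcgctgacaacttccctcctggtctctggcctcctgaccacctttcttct
Itga4 promoter: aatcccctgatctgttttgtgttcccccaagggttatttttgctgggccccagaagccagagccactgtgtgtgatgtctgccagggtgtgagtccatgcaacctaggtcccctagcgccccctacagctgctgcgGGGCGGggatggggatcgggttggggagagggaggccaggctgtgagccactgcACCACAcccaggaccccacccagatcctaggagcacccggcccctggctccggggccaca
Itgb7 promoter: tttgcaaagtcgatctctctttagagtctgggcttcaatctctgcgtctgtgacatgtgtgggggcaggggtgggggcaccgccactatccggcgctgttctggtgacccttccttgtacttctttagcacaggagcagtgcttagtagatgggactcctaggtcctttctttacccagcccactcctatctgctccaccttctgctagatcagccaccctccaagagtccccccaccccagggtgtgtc
In Itgam the PU.1 letters begin 84 bases before the start and, on the other strand, 15 bases before it, with an SP1 match 47 bases before it. Itgax holds an AP-1 match 56 bases before its start. Itga4 holds a RUNX match 60 bases and an SP1 match 114 bases before its start. The Itgb7 window held none of these letters. PU.1 letters were in 4 of the 7 member windows and in 23.3% of all 32851 windows, SP1 letters in 4 of 7 and in 32.7%, RUNX letters in 1 of 7 and in 14%, and AP-1 letters in 1 of 7 and in 6.75%. No member window held the letters searched for C/EBP (TTGCNNAA, 9.56% of all windows), for GAS (TTCNNNGAA, 7.02%), for an ISRE core (2.98%) or for NF-kB (1.41%). No 2 matches shared bases, and a match describes letters and not occupancy.

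**Figure D1:**
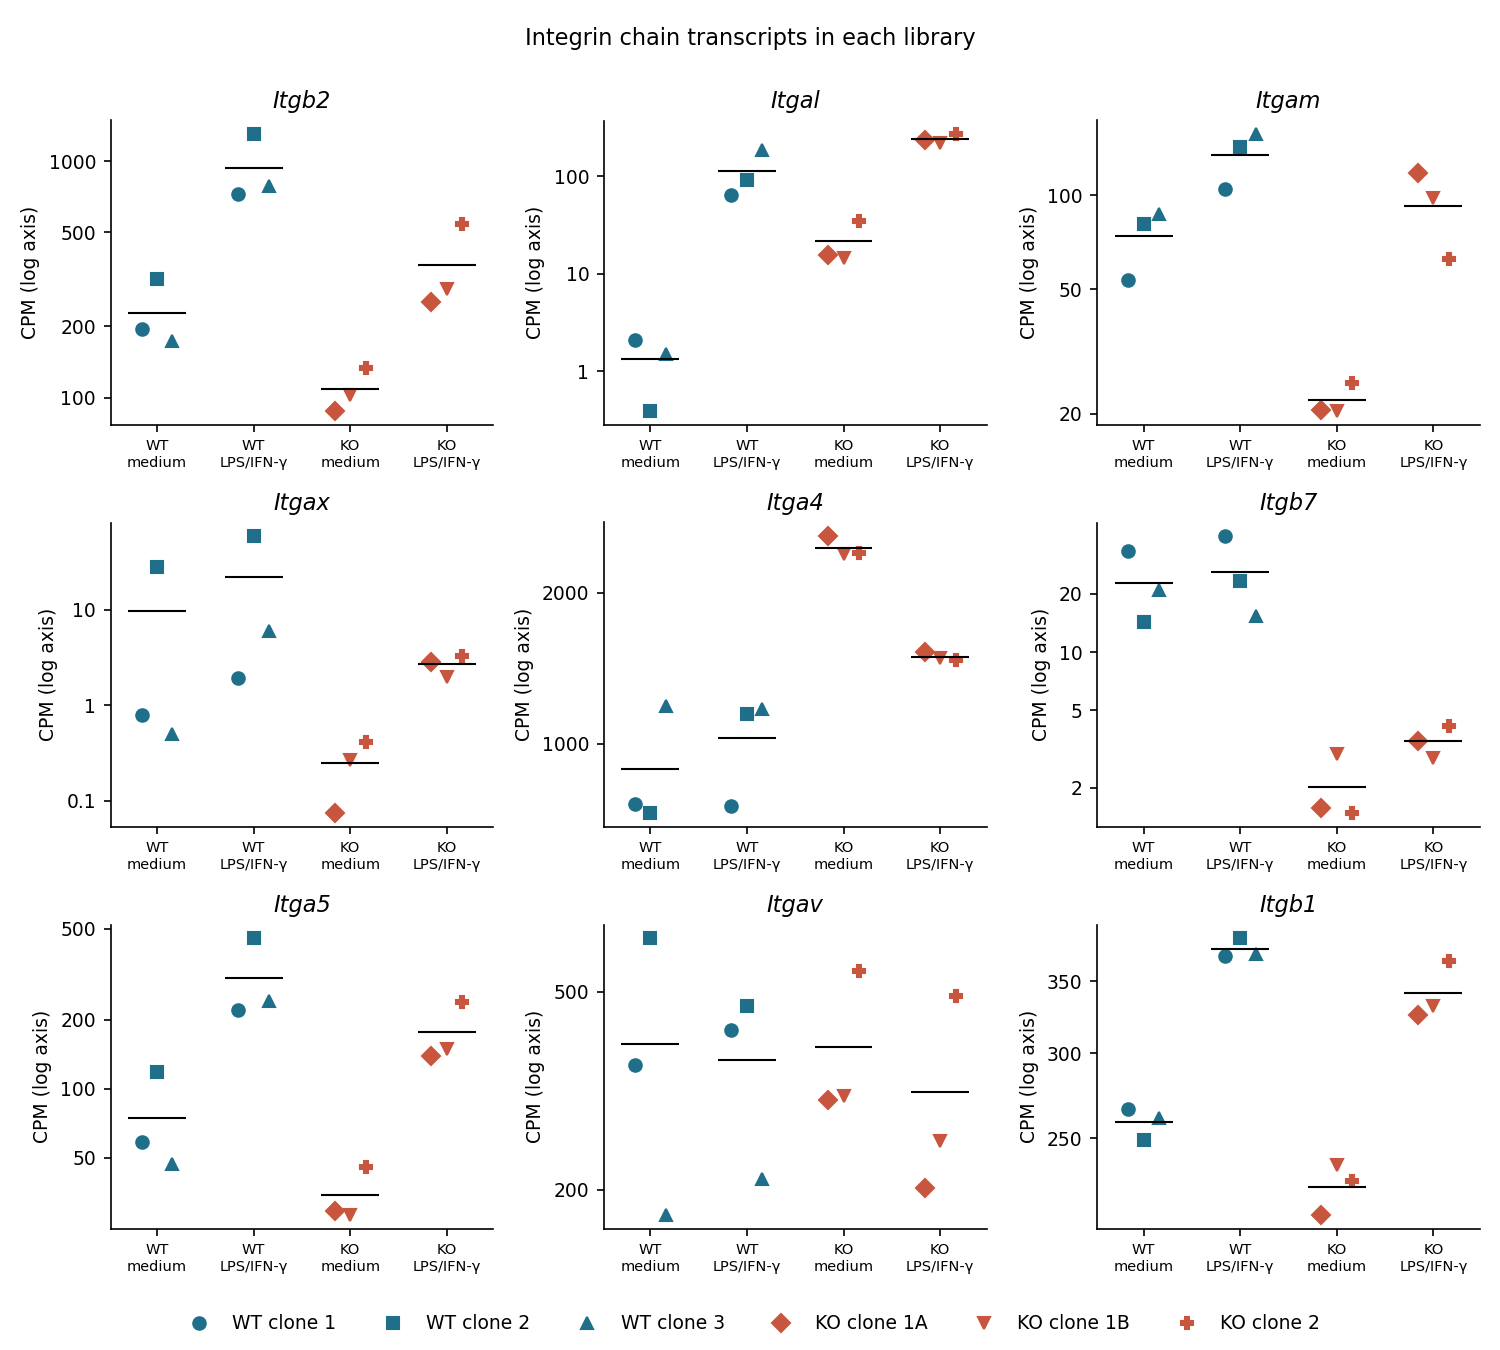
Level of each integrin chain (CPM, log axis, a different range in each panel) in the 12 libraries, by group; each symbol is 1 clone and the line is the group mean. Itgb7 in KO clones sits between 1.48 and 4.16 CPM, under all WT libraries, and Itga4 in KO clones in medium sits between 2389 and 2591 CPM, above all other libraries.

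The shared beta chain of the leukocyte family rose with stimulation in each genotype. Itgb2 (ENSMUSG00000000290, chr10:77530252-77565708, plus strand, GRCm38) was read at 195, 317 and 174 CPM in WT 1, 2 and 3 in medium and at 729, 1301 and 783 CPM after LPS/IFN-gamma. In KO 1A, 1B and 2 it was read at 87.8, 103 and 134 CPM in medium and at 255, 289 and 543 CPM after stimulation. All stimulated libraries stood above the medium libraries of the same genotype, and in each condition all KO libraries stood below all WT libraries. The rise was 4.1-fold in WT clones (log2 2.04 ± 0.35 SE, adjusted p = 0.00092) and 3.34-fold in KO clones (1.74 ± 0.35, adjusted p = 0.0018). These and the following adjusted p values are from edgeR's quasi-likelihood test, adjusted over all genes tested by Benjamini-Hochberg. They rest on the spread between the 3 libraries of a group, pooled over the 4 groups. KO 1A and 1B count there as separate clones, and the pairing of libraries by clone is not used. The genotype difference in Itgb2 did not pass this test. The log2 difference (KO minus WT) was -1.08 ± 0.35 in medium (adjusted p = 0.18) and -1.37 ± 0.35 under stimulation (adjusted p = 0.051). The stimulated difference passed with DESeq2 (adjusted p = 0.0018) and with library totals in place of TMM factors (0.044), but its adjusted p was 0.27 with KO 1A and 1B summed. In these bulk libraries, fewer cells with a transcript and less of it per cell cannot be told apart.

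Itgal, the alpha chain of LFA-1, rose in each genotype and was higher in KO clones in medium (ENSMUSG00000030830, chr7:127296260-127335138, plus strand). WT 1, 2 and 3 in medium gave 2.1, 0.392 and 1.49 CPM, which rest on 29, 5 and 24 counts, and 64, 90.4 and 185 CPM after stimulation. The KO clones 1A, 1B and 2 gave 15.7, 14.6 and 34.6 CPM in medium and 237, 220 and 268 CPM after stimulation. Every KO library in medium stood above every WT library in medium, and the stimulated groups did not overlap either. Itgal rose 83.2-fold in WT clones (6.38 ± 0.61, adjusted p = 2.6e-05) and 11.2-fold in KO clones (3.48 ± 0.50, adjusted p = 0.00023). KO clones were 15.9-fold higher in medium (3.99 ± 0.59, adjusted p = 0.011), while the stimulated difference of 1.10 ± 0.45 did not pass (adjusted p = 0.2). With KO 1A and 1B summed, the medium difference was 4.19 and no longer passed (adjusted p = 0.08). The ratio of stimulated to medium level was 30.5, 231 and 124 in WT 1, 2 and 3 and 15.1, 15.1 and 7.75 in KO 1A, 1B and 2, and the difference between the responses is given further on. Lck, the T or NK cell marker above, was also higher after stimulation, and its part was not tested; Cd3e, Cd3g, Cd4, Cd8a, Cd8b1 and Ncr1 had no row.

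Itgam, the alpha chain of Mac-1 and a common macrophage surface marker, was lower in KO clones in medium and rose in each genotype. It lies at chr7:128062640-128118491 on the plus strand (ENSMUSG00000030786), and 68.7% of its exon length is shared with the same-strand gene Gm49368, which has no row, so how reads of the shared exons were assigned is uncertain. WT 1, 2 and 3 gave 53.7, 81.3 and 87.1 CPM in medium and 105, 143 and 157 CPM after stimulation. KO 1A, 1B and 2 gave 20.6, 20.4 and 25.1 CPM in medium and 118, 98.1 and 62.4 CPM after stimulation. The medium libraries of the genotypes did not overlap, and the stimulated ones did, with KO 1A above WT 1. The rise was 1.82-fold in WT clones (0.86 ± 0.25, adjusted p = 0.015) and 4.21-fold in KO clones (2.07 ± 0.26, adjusted p = 8.1e-05). The WT rise did not pass with library totals (0.51, adjusted p = 0.11) or without WT 2 (0.87, adjusted p = 0.061). In medium KO clones were 3.36-fold lower (-1.75 ± 0.26, adjusted p = 0.0098), which did not pass with KO 1A and 1B summed (-1.70, adjusted p = 0.12), and under stimulation the difference was -0.54 ± 0.25 (adjusted p = 0.24).

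Itgax, the CD11c chain known from dendritic cells and some macrophages, was low except in WT 2 (ENSMUSG00000030789, chr7:128129547-128150657, plus strand). In medium WT 1, 2 and 3 gave 0.797, 27.9 and 0.498 CPM, from 11, 356 and 8 counts, and 1.92, 58.5 and 5.98 CPM after stimulation. KO 1A, 1B and 2 gave 0.075, 0.27 and 0.411 CPM in medium, from 1, 4 and 5 counts, and 2.86, 1.96 and 3.28 CPM after stimulation. The level was higher after stimulation in all 6 clones, and WT 2 stood far above the other clones in each condition. The 4 dendritic cell markers with a row (Zbtb46, Xcr1, Clec9a and Siglech) summed to 15.3 CPM in WT 2 in medium, of which Siglech made 13.1 CPM, against 1.3 to 3.25 CPM in the other medium libraries. After stimulation the sum was 28.1 CPM in WT 2 and 36.6 CPM in WT 3. Flt3 and Ccr7 had no row, and the part of such cells in the Itgax level was not tested. The responses did not pass in WT clones (1.19 ± 1.37, adjusted p = 0.51) or in KO clones (3.38 ± 1.99, adjusted p = 0.17). With clone as a replicate block, Itgax passed in WT clones (1.60, adjusted p = 0.0075) and in KO clones (3.37, adjusted p = 0.0029). The genotype difference in medium was -5.22 ± 1.91 (adjusted p = 0.24) and -1.33 without WT 2 (adjusted p = 0.47). With DESeq2 that difference (-5.27, adjusted p = 0.016) and the KO response (3.45, adjusted p = 0.044) passed.

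**Figure D2:**
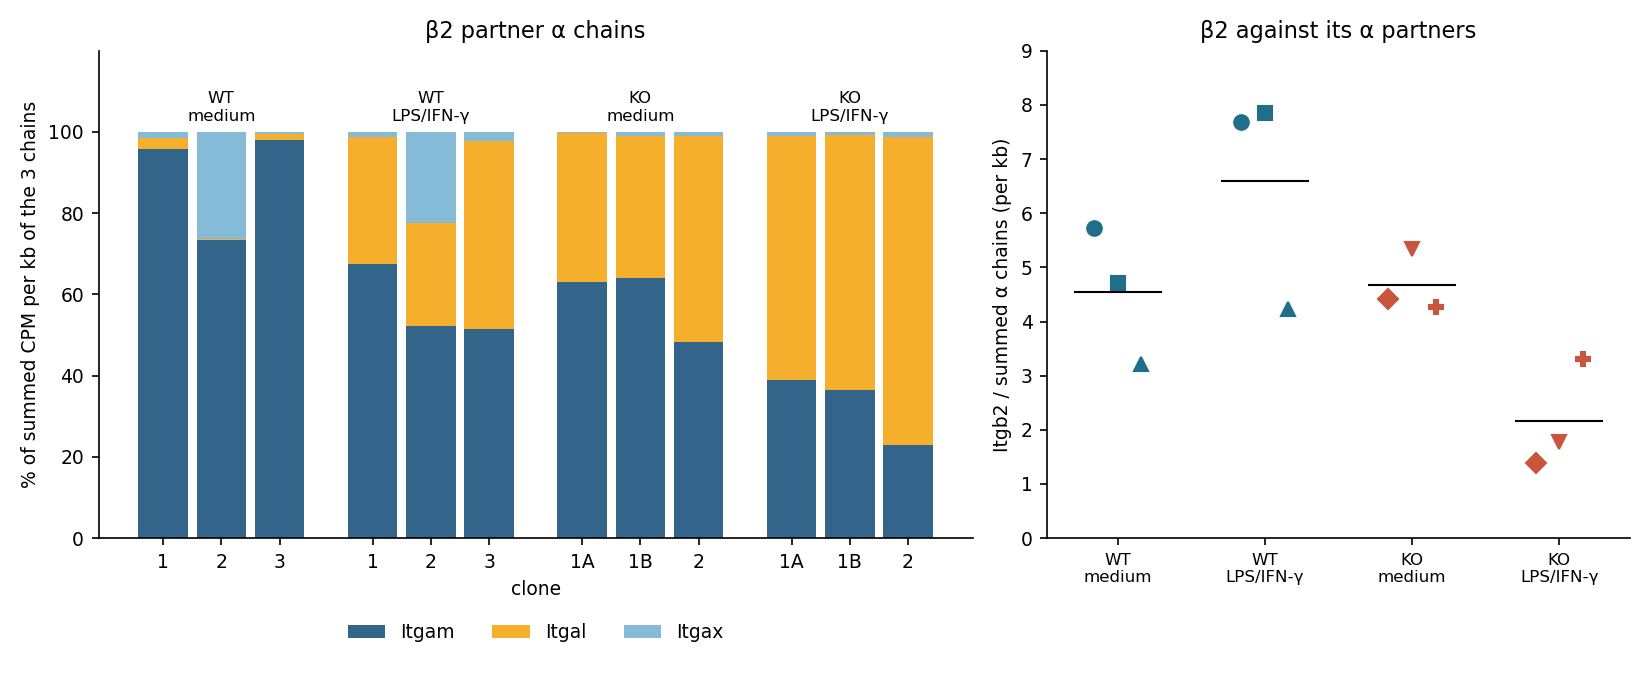
Make-up of the beta2 partners in each library: the share of Itgal, Itgam and Itgax in their summed level per kilobase (percent of the sum, bars from 0) and the ratio of Itgb2 to that sum (1 symbol a clone, shaped as in the plot of levels by library, with the line at the group mean). Itgal makes up 0.27% to 2.86% of the sum in WT clones in medium and 60.1% to 75.7% in stimulated KO clones. How reads of exons that Itgam shares with Gm49368 were assigned is uncertain.

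Since Itgal, Itgam and Itgax products share the beta2 chain, their levels per kilobase of exon (CPM per kb) were set against each other. Itgad had no row. Gm49368 shares 68.7% of the Itgam exon length, so the Itgam level per kilobase, the shares and the ratio carry that uncertainty over read assignment. In WT clones in medium Itgam made up 89.1% ± 13.6 (SD, n = 3) of the summed alpha chains and Itgal 1.47% ± 1.31. After stimulation the WT shares were 57% ± 8.95 for Itgam and 34.4% ± 10.9 for Itgal. KO clones in medium already stood at 58.4% ± 8.81 for Itgam and 40.9% ± 8.69 for Itgal, and after stimulation at 32.8% ± 8.57 and 66.2% ± 8.36. The Itgax share exceeded 3% only in WT 2, where it was 26.3% in medium and 22.4% after stimulation. In all 4 comparisons the groups did not overlap in the share of Itgal, and the exact two-sided permutation test gave p = 0.10, the smallest that 3 against 3 libraries allow (0.15 adjusted over 16 such tests). The ratio of Itgb2 to the summed alpha chains was 4.55 ± 1.26 in WT and 4.67 ± 0.583 in KO clones in medium (exact permutation p = 0.90). After stimulation it was 6.59 ± 2.04 in WT and 2.15 ± 1.01 in KO clones, without overlap (exact permutation p = 0.10, adjusted 0.15). By clone the stimulated ratio was 7.69, 7.85 and 4.24 in WT 1, 2 and 3, and 1.39, 1.78 and 3.3 in KO 1A, 1B and 2. These permutation tests count KO 1A and 1B as separate clones. The shares and ratios are not given with them summed. The summed alpha chains stood at 17 and 7.73 CPM per kb in WT and KO clones in medium and at 48.6 and 55.8 CPM per kb after stimulation.

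Of the pair of chains that make up alpha4 beta7, the alpha chain was higher and the beta chain lower in KO clones in medium. Itga4 (ENSMUSG00000027009, chr2:79255426-79333123, plus strand) gave 757, 727 and 1187 CPM in WT 1, 2 and 3 in medium and 751, 1148 and 1173 CPM after stimulation. The KO clones 1A, 1B and 2 gave 2591, 2389 and 2400 CPM in medium and 1521, 1483 and 1467 CPM after stimulation. The KO libraries stood above the WT libraries in each condition, and the stimulated KO libraries stood below the KO medium libraries. In medium KO clones were 2.76-fold higher (1.47 ± 0.21, adjusted p = 0.0083), and under stimulation the difference was 0.54 ± 0.21 (adjusted p = 0.16). Itga4 fell 1.65-fold in KO clones (-0.72 ± 0.21, adjusted p = 0.012), with ratios of stimulated to medium level of 0.587, 0.621 and 0.611, and the WT response was 0.20 ± 0.21 (adjusted p = 0.45). The medium difference (1.46, adjusted p = 0.1) and the KO response (-0.71, adjusted p = 0.077) did not pass with KO 1A and 1B summed, and the KO response also did not pass without KO 1A (0.084), KO 1B (0.069) or KO 2 (0.065). The opposite-strand gene Cerkl, which shares 8.04% of the Itga4 exon length, was read at 0.293 to 3.6 CPM.

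Itgb7, the beta chain that pairs with alpha 4 in gut-homing leukocytes, was the only member lower in KO clones in each condition by the test (ENSMUSG00000001281, chr15:102215995-102231944, minus strand). WT 1, 2 and 3 gave 33.2, 14.3 and 21 CPM in medium and 39.6, 23.3 and 15.3 CPM after stimulation. KO 1A, 1B and 2 gave 1.57, 2.97 and 1.48 CPM in medium and 3.48, 2.84 and 4.16 CPM after stimulation, from 18 to 44 counts a library. No KO library reached the lowest WT library. KO clones were 11.2-fold lower in medium (-3.49 ± 0.45, adjusted p = 0.0053) and 7.47-fold lower under stimulation (-2.90 ± 0.43, adjusted p = 0.0061). With KO 1A and 1B summed the differences were -3.55 (adjusted p = 0.074) and -2.84 (adjusted p = 0.065), and without KO 1A the adjusted p was 0.11 and 0.085. Without KO 1B it was 0.043 in medium and 0.059 under stimulation. The responses were 0.19 ± 0.39 in WT clones (adjusted p = 0.71) and 0.78 ± 0.45 in KO clones (adjusted p = 0.17).

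Among the fibronectin and vitronectin receptor chains, Itga5 and Itgb1 rose in each genotype and Itgav did not pass any test. Itga5 (ENSMUSG00000000555, chr15:103344286-103366763, minus strand), the fibronectin-binding alpha chain, gave 58.5, 118 and 46.7 CPM in WT 1, 2 and 3 in medium and 222, 455 and 241 CPM after stimulation. In KO 1A, 1B and 2 it stood at 29.1, 28.1 and 45.6 CPM in medium and 139, 150 and 240 CPM after stimulation. Its stimulated libraries stood above the medium libraries of the same genotype, and only the medium libraries were apart between genotypes, by 45.6 CPM in KO 2 against 46.7 CPM in WT 3. It rose 4.11-fold in WT clones (2.04 ± 0.41, adjusted p = 0.0024) and 5.15-fold in KO clones (2.36 ± 0.42, adjusted p = 0.00087). The genotype differences of -1.12 ± 0.41 in medium (adjusted p = 0.24) and -0.79 ± 0.40 under stimulation (adjusted p = 0.28) did not pass.

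Itgb1, the common beta chain of many matrix receptors, rose modestly in each genotype (ENSMUSG00000025809, chr8:128685654-128733200, plus strand). It stood at 266, 249 and 261 CPM in WT 1, 2 and 3 in medium and at 370, 384 and 371 CPM after stimulation. KO 1A, 1B and 2 gave 212, 236 and 228 CPM in medium and 326, 332 and 366 CPM after stimulation. In each condition the KO libraries were below the WT libraries, by a margin that did not pass (-0.20 ± 0.08, adjusted p = 0.32 in medium, and -0.14 ± 0.08, adjusted p = 0.38 under stimulation). The rise was 1.45-fold in WT clones (0.54 ± 0.08, adjusted p = 0.00046) and 1.51-fold in KO clones (0.60 ± 0.08, adjusted p = 0.00017). Scaled by library totals, where the median of all genes is -0.37 in the WT and -0.39 in the KO response, it was 0.18 (adjusted p = 0.089) and 0.22 (adjusted p = 0.04).

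Itgav, the alpha v chain, varied between clones within each group (ENSMUSG00000027087, chr2:83724397-83806916, plus strand). WT 1, 2 and 3 gave 357, 640 and 178 CPM in medium and 419, 467 and 210 CPM after stimulation, and KO 1A, 1B and 2 gave 303, 308 and 551 CPM and 202, 251 and 490 CPM. WT 3 was lowest of the WT clones and KO 2 highest of the KO clones in each condition, and all groups overlapped. The log2 differences were -0.10 ± 0.50 for the WT response (adjusted p = 0.88), -0.30 ± 0.50 for the KO response (0.63), -0.02 ± 0.50 between genotypes in medium (1) and -0.22 ± 0.50 under stimulation (0.85).

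Per kilobase, Itgb2, Itga4 and Itgb1 led the members in WT clones in medium, at 74.9, 63.7 and 63.4 CPM per kb, with overlapping ranges. In that group Itgav followed at 36.5, apart from Itgb1, then Itga5 at 15.1, Itgam at 14.7, Itgb7 at 8.23, Itgax at 2.02 and Itgal at 0.202 CPM per kb, each overlapping its neighbour. After stimulation Itgb2 stood alone at 307 CPM per kb in WT clones, ahead of Itgb1 at 91.9 and Itga4 at 73.3, with Itgal at 17.2 now above Itgb7 at 9.41 and Itgax at 4.61. In KO clones in medium Itga4 stood alone at 176 CPM per kb, ahead of Itgb1 at 55.2, Itgav at 36 and Itgb2 at 35.5, the last pair overlapping. Itgam at 4.38 and Itgal at 3.3 CPM per kb overlapped there, and Itgb7 at 0.726 and Itgax at 0.0525 were lowest. In stimulated KO clones Itgb2 at 119 and Itga4 at 107 CPM per kb overlapped, and Itgb1 at 83.6 overlapped Itgb2 but not Itga4. Itgal at 36.8, Itga5 at 35.8, Itgav at 29.2 and Itgam at 18.4 overlapped in turn. The place of Itgam in these orders carries the uncertainty over reads of the exons it shares with Gm49368.

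**Figure D3:**
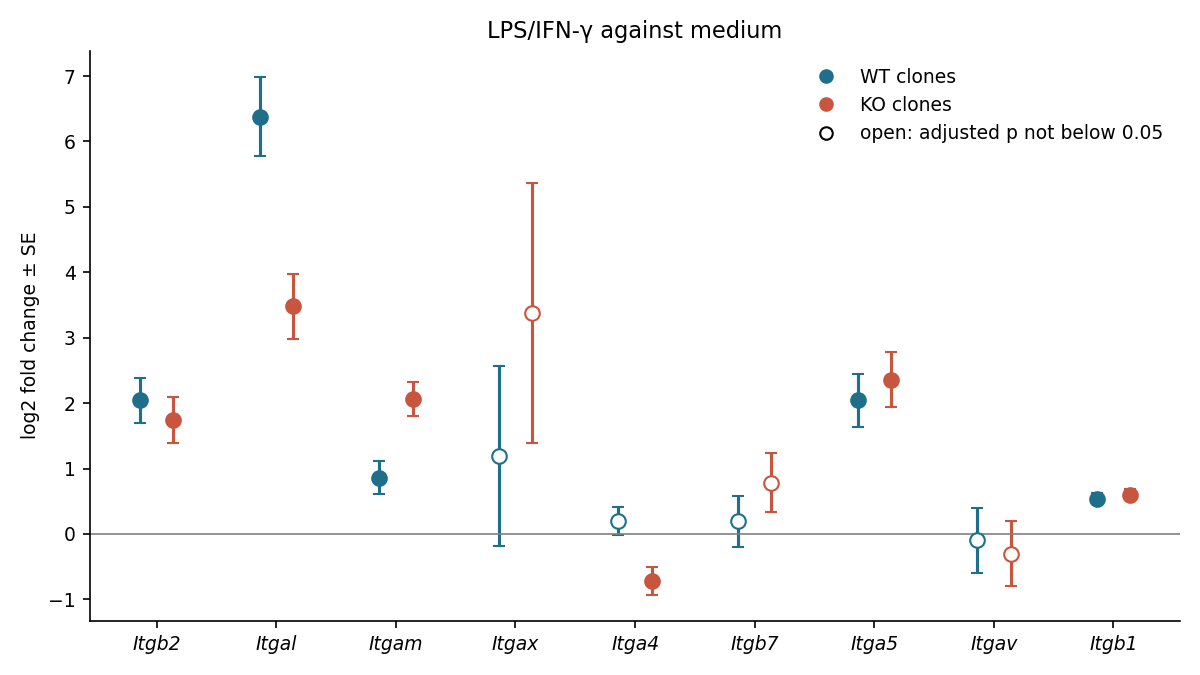
Log2 change from medium to LPS/IFN-gamma (± SE) of each integrin chain in WT and KO clones, where filled points passed an adjusted p of 0.05. Itgal has the largest changes, 6.38 in WT and 3.48 in KO clones, and Itga4 in KO clones is the one filled point below 0, at -0.72.

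Counted over the members, 5 of 9 rose and 0 of 9 fell in WT clones, where 23.8% of the 12231 tested genes were called higher and 23.6% lower. In KO clones 5 of 9 rose and 1 of 9 fell, against 26.7% and 27.6% of all genes. The members that rose were Itgb2, Itgal, Itgam, Itga5 and Itgb1 in each genotype. The median log2 change of the 9 was 0.86 in WT and 1.74 in KO clones, beside a median of -0.01 over all genes in each. Under library totals 3 of 9 rose in WT clones, where that fit called 1586 of all genes higher and 5240 lower. Between genotypes in medium, 2 of 9 were higher in KO clones (Itgal and Itga4) and 2 of 9 lower (Itgam and Itgb7), where 0.352% of all genes were called higher and 0.858% lower. An unadjusted p under 0.05 was reached by 8 of the 9. The share of all genes at that threshold is not given. The counts at an unadjusted p, here and below, therefore say nothing on an excess. Under stimulation 0 of 9 were higher and 1 of 9 lower (Itgb7), where 1.13% of genes were called higher and 3.51% lower. With edgeR 4 of the 9 had an unadjusted p under 0.05 there.

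The medium calls depended on KO 1A and 1B, and so did those over all genes. With all clones 43 genes were called higher and 105 lower in medium, and 3 and 13 with KO 1A and 1B summed. These counts were 2 and 12 without KO 1A, 5 and 19 without KO 1B and 26 and 85 without KO 2. Without WT 1, 2 or 3 they were 50 and 109, 51 and 93, and 88 and 331. None of Itgal, Itgam, Itga4 and Itgb7 passed with KO 1A and 1B summed or without KO 1A, and Itgb7 alone passed without KO 1B (-3.89, adjusted p = 0.043). All 4 passed without KO 2 and without any 1 WT clone, and none changed direction in any of these fits. The WT response and the medium difference share the WT medium libraries, and the other comparisons share groups in the same way, so they are not independent of each other.

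**Figure D4:**
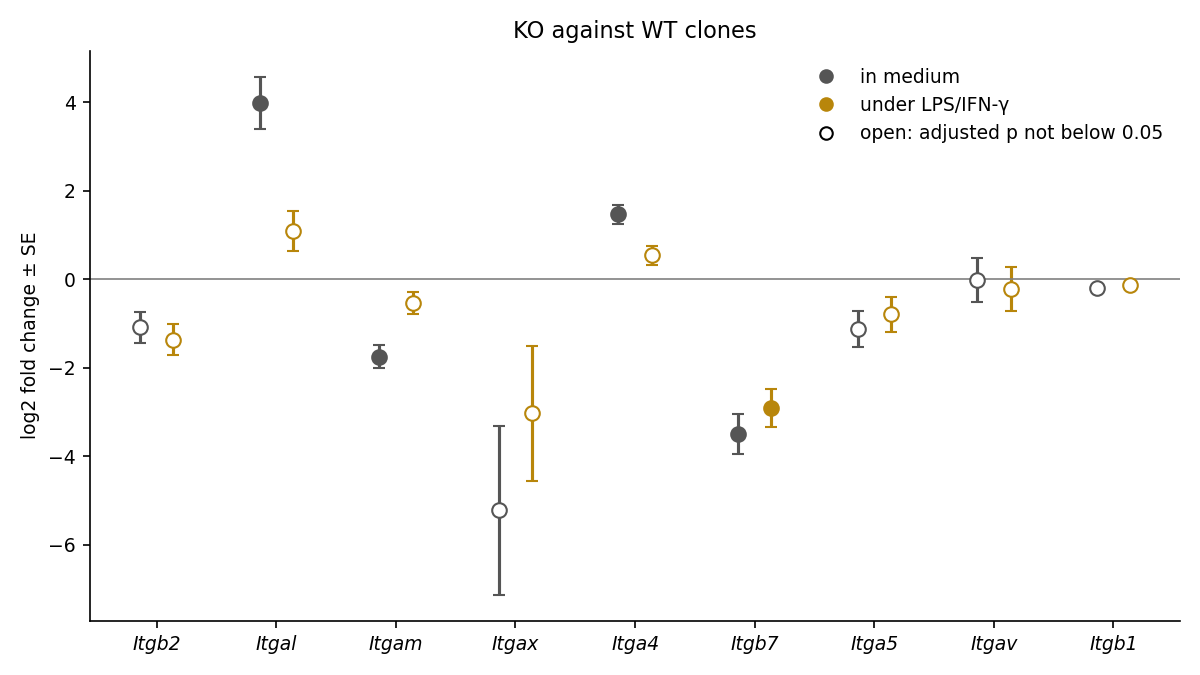
Log2 difference KO minus WT (± SE) of each integrin chain in medium and under LPS/IFN-gamma, where filled points passed an adjusted p of 0.05. Itgal and Itga4 are filled above 0 and Itgam and Itgb7 below 0 in medium, and under stimulation only Itgb7 is filled.

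Whether the genotypes responded differently was tested as an interaction (KO response minus WT response), and edgeR called 0 of the 12231 genes, which is 0% in either direction. DESeq2 called 16 genes higher and 13 lower, and the fit with clone as a replicate block called 20 higher and 20 lower. Among the members 3 had an unadjusted p under 0.05. Itgal rose less in KO clones by -2.89 ± 0.74 (unadjusted p = 0.0027, adjusted p = 0.68), which passed with DESeq2 only (-2.91, adjusted p = 0.02). For Itgam the value was 1.21 ± 0.35 (unadjusted p = 0.0058, adjusted p = 0.7), and the ratio of stimulated to medium level was 1.75 to 1.96 in WT and 2.49 to 5.7 in KO clones. For Itga4 it was -0.93 ± 0.29 (unadjusted p = 0.0088, adjusted p = 0.76). No member passed with the clone block, where the adjusted p was 0.16 for Itgal, 0.15 for Itgam and 0.083 for Itga4.

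Of 17 other integrin chain genes looked up, 5 had a row. Itgb5, a beta partner of alpha v, gave 153, 163 and 111 CPM in WT 1, 2 and 3 in medium and 38.3, 51 and 18.2 CPM after stimulation, and in KO 1A, 1B and 2 gave 191, 172 and 353 CPM and then 30.7, 30.6 and 48.5 CPM. All its stimulated libraries were below the medium libraries, a fall of -1.99 ± 0.39 in WT clones (adjusted p = 0.002) and of -2.70 ± 0.40 in KO clones (adjusted p = 0.00028). Itga6, a laminin-binding chain, gave 30.9, 53.6 and 35 CPM and then 39.3, 34.4 and 10.5 CPM in WT clones, and 20.4, 24.3 and 20.8 CPM and then 6.14, 6.35 and 8.54 CPM in KO clones. Stimulated KO clones stood below every other group's libraries. Itga6 fell in KO clones (-1.64 ± 0.42, adjusted p = 0.0067) and was lower in stimulated KO than WT clones (4.01-fold, adjusted p = 0.026), which did not pass with KO 1A and 1B summed (-1.55, adjusted p = 0.052, and -1.93, adjusted p = 0.18) or without KO 1A or KO 1B. The genotype difference also did not pass without WT 1 (0.068), WT 2 (0.06) or KO 2 (0.075). Itga2b, the platelet alpha IIb chain, rested on 4 to 26 counts a library and stood at 2.42 ± 0.375 CPM (SD, n = 3) in stimulated KO clones against 0.667 to 0.779 CPM in the other group means. It rose in KO clones (1.62 ± 0.40, adjusted p = 0.0057) and was higher than in stimulated WT clones (1.70 ± 0.41, adjusted p = 0.044), the latter not with KO 1A and 1B summed (1.76, adjusted p = 0.18) or without any 1 KO clone, WT 1 or WT 3. The other platelet markers Gp1ba, Gp9, Pf4 and Ppbp had no row. Itga7 and Itga10 had group means of 1.87 to 3.68 CPM and were called in no comparison, and Itga10 shares 33.5% of its exon length with Gm42957.

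Of 23 genes whose products switch integrins on or off from inside the cell, 8 rose and 6 fell in WT clones (median 0.20, beside -0.01 over all genes), where 23.8% of all genes rose and 23.6% fell. In KO clones 10 rose and 7 fell (median 0.19), where 26.7% of all genes rose and 27.6% fell. The all-gene median of -0.01 holds for the following lists too. Under library totals 5 rose and 8 fell in WT clones, and 5 rose and 10 fell in KO clones. Over all 12231 genes that fit called 1586 higher and 5240 lower in WT clones, and 1793 and 5520 in KO clones. These all-gene counts hold for the following lists too. Rapgef2, an exchange factor for Rap GTPases, rose from 58.4 to 900 CPM in WT clones (3.95 ± 0.22, adjusted p = 4.9e-07) and from 60 to 753 CPM in KO clones (3.65 ± 0.22, adjusted p = 5.6e-07). Rap1b, a GTPase that recruits talin to integrins, rose by 1.94 ± 0.13 (adjusted p = 2e-06) and 1.99 ± 0.13 (adjusted p = 1.3e-06). Sipa1, which switches Rap off, fell by 1.47 (adjusted p = 1.9e-05) and 1.68 (adjusted p = 6.3e-06). Between genotypes in medium, 0.352% of all genes were called higher and 0.858% lower. Of the 23, 1 was called lower there, Tln1, which encodes talin. It stood at 859 CPM in WT and 603 CPM in KO clones (-0.51 ± 0.10, adjusted p = 0.044). That call did not pass with library totals (0.056), with KO 1A and 1B summed (0.29), or without WT 1 (0.079), WT 2 (0.085) or any 1 KO clone. Under stimulation 0 of 23 were called, where 1.13% of all genes were called higher and 3.51% lower. An unadjusted p under 0.05 was reached there by 4.

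Of 42 linkers and kinases of adhesion complexes, 15 rose and 8 fell in WT clones (23.8% and 23.6% of all genes) and 14 rose and 9 fell in KO clones (26.7% and 27.6% of all genes), with medians of 0.30 and 0.22. Under library totals 9 rose and 14 fell in each genotype. All genes gave 1586 higher and 5240 lower in WT clones there, and 1793 and 5520 in KO clones. With KO 1A and 1B summed 9 rose and 7 fell in KO clones, where 2460 of 12355 genes rose and 2377 fell. Lyn, a Src family kinase of myeloid cells, rose from 214 to 736 CPM in WT clones (1.78 ± 0.15, adjusted p = 8.1e-06) and from 153 to 792 CPM in KO clones (2.38 ± 0.16, adjusted p = 1e-06). Zyx, the focal adhesion protein zyxin, rose from 2.53 to 151 CPM in WT clones (5.90 ± 0.63, adjusted p = 5e-05) and from 0.94 to 33.7 CPM in KO clones (5.12 ± 0.67, adjusted p = 0.00012). Ptpn12, a phosphatase of adhesion proteins, and Vasp, an actin-binding protein, rose in KO clones by 1.47 ± 0.18 and 1.10 ± 0.13 (adjusted p = 5.4e-05 for each) and in WT clones by 1.30 ± 0.17 (0.00016) and 0.94 ± 0.13 (0.00021). Between genotypes, 0 were higher and 3 lower in medium (median -0.22), and 0 higher and 6 lower under stimulation (median -0.28). Over all genes more were lower than higher too, 0.858% against 0.352% in medium and 3.51% against 1.13% under stimulation.

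Pstpip1 and Lasp1 were lower in KO clones in each condition. Pstpip1, an adaptor of actin and phosphatases, stood at 71.3 CPM in WT and 25.4 CPM in KO clones in medium (-1.49 ± 0.21, adjusted p = 0.0083) and at 87.7 and 31.1 CPM, in the same order, under stimulation (-1.50 ± 0.21, adjusted p = 0.0044). Lasp1, an actin-binding adhesion protein, stood at 118 CPM in WT and 42 CPM in KO clones in medium (-1.49 ± 0.26, adjusted p = 0.024) and at 224 and 37.1 CPM, in that order, under stimulation (-2.60 ± 0.27, adjusted p = 0.0012). Evl, an Ena/VASP family protein that elongates actin filaments, stood at 40.5 ± 13.3 CPM in WT and 2.21 ± 0.781 CPM in KO clones under stimulation (-4.19 ± 0.48, adjusted p = 0.0016), after 15 counts in all WT medium libraries together. With KO 1A and 1B summed, or without KO 1A or KO 1B, 0 of the 42 were called in medium. In medium 1 was lower without KO 2 and 5 without WT 3, where 85 and 331 of all genes were lower. The medium call of Lasp1 also did not pass without KO 2 (0.078) or WT 1 (0.06). Under stimulation 3 were called with KO 1A and 1B summed and 2 without KO 1A or without KO 1B. Over all genes these fits called 61, 39 and 58 lower. Without WT 3 there were 10 lower and 1 higher, beside 704 lower and 268 higher over all genes. The stimulated call of Pstpip1 did not pass without KO 1A (0.058) or KO 1B (0.053). With DESeq2, 6 were lower in medium and 12 under stimulation, where it called 453 and 797 of all genes lower.

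Of 17 integrin ligand genes tested, 7 rose and 0 fell in WT clones (median 0.25; 23.8% and 23.6% of all genes), and 6 rose and 1 fell in KO clones (median 0.56; 26.7% and 27.6% of all genes). Under library totals 6 rose and 1 fell, and 4 rose and 3 fell. Icam1, the ligand of LFA-1 and Mac-1, rose from 105 to 887 CPM in WT clones (3.08 ± 0.33, adjusted p = 4e-05) and from 87.2 to 641 CPM in KO clones (2.88 ± 0.33, adjusted p = 4.2e-05). C3, the complement protein whose fragment iC3b binds Mac-1, rose by 5.65 ± 0.59 (adjusted p = 3.3e-05) and 6.08 ± 0.65 (adjusted p = 2.6e-05) from 10 and 5 counts summed over the medium libraries. Jam2, a junctional adhesion molecule, rose in WT clones by 1.98 ± 0.31 (adjusted p = 0.00042) and in KO clones by 1.18 ± 0.30 (0.007). Lgals3bp, a secreted glycoprotein, rose by 2.23 ± 0.53 (adjusted p = 0.0059) in WT and 2.59 ± 0.54 (0.0024) in KO clones. Between genotypes edgeR called 0 of 17 in each condition, with 3 in medium and 6 under stimulation at an unadjusted p under 0.05. Over all genes 0.352% were called higher and 0.858% lower in medium, and 1.13% and 3.51% under stimulation.

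Of 14 membrane partners of integrins, 7 rose and 1 fell in WT clones (median 0.77; 23.8% and 23.6% of all genes) and 8 rose and 2 fell in KO clones (median 0.87; 26.7% and 27.6%). Under library totals these counts were 6 and 3 in WT clones and 5 and 2 in KO clones. Cd47, which binds SIRP alpha and associates with integrins, rose from 44.6 to 222 CPM in WT (2.32 ± 0.27, adjusted p = 6.5e-05) and from 32.3 to 226 CPM in KO clones (2.81 ± 0.27, adjusted p = 1.6e-05). Cd44, the hyaluronan receptor, rose by 2.13 ± 0.34 (adjusted p = 0.00049) and 3.10 ± 0.35 (adjusted p = 4.2e-05). Cd63, a tetraspanin, was lower in KO clones in medium (17.7 against 3.22 CPM, -2.46 ± 0.44, adjusted p = 0.024) and under stimulation (-2.25 ± 0.43, adjusted p = 0.018), and it is also on the macrophage marker list. Cd82, another tetraspanin, rose by 2.21 ± 0.19 (adjusted p = 8.1e-06) and 1.44 ± 0.19 (adjusted p = 0.0001) and was lower in stimulated KO clones (-1.15 ± 0.18, adjusted p = 0.0076). With KO 1A and 1B summed the genotype differences of Cd63 were -2.43 and -2.13 (adjusted p = 0.21 and 0.15) and that of Cd82 was -1.06 (0.072), and these did not pass, nor without KO 1A or without KO 1B. The Cd63 calls also did not pass without WT 2 (0.056 and 0.054), and the medium call not without WT 1 (0.074) or KO 2 (0.082).

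Of 18 integrin trafficking genes, 6 rose and 4 fell in WT clones (median 0.16; 23.8% and 23.6% of all genes) and 7 rose and 3 fell in KO clones (median 0.12; 26.7% and 27.6%). Under library totals 5 rose and 5 fell, and 4 rose and 7 fell. With KO 1A and 1B summed 5 rose and 1 fell in KO clones, beside 2460 and 2377 of all genes. Ehd1, an endosomal recycling protein, rose by 2.75 ± 0.16 (adjusted p = 7.1e-07) and 2.99 ± 0.16 (adjusted p = 3.7e-07), and Rab11fip1, a recycling adaptor, by 2.76 ± 0.36 (adjusted p = 0.00015) and 2.83 ± 0.36 (adjusted p = 9.2e-05). Rab5a, a GTPase of early endosomes, rose by 0.74 ± 0.12 (adjusted p = 0.00043) in WT and 1.20 ± 0.12 (adjusted p = 1.5e-05) in KO clones. Dab2, an adaptor of clathrin uptake, fell in WT clones (-2.24 ± 0.32, adjusted p = 0.00027), had a KO response of -0.63 ± 0.31 (0.11) and was lower in KO clones in medium, at 76 against 289 CPM (-1.93 ± 0.32, adjusted p = 0.017), which did not pass with KO 1A and 1B summed (-1.83, adjusted p = 0.19) or without KO 1A (0.21) or KO 1B (0.19). Under stimulation edgeR called 0 of 18 between genotypes, with 4 at an unadjusted p under 0.05. Over all genes 1.13% were called higher and 3.51% lower there. In none of these lists was the interaction called for any gene by edgeR.

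Likeness of pattern was measured as the root mean square difference of log2 CPM, each gene centred on its mean over the 12 libraries, among 9845 tested genes with a mean of at least 5 CPM. Itgb1 had the closest neighbours, Tpm3 and Ube2m at 0.05 each. Itgb2 lay nearest to Anxa4 at 0.25 and then to Itga5 at 0.32. Itgam lay nearest to Ppm1l (0.39) and P2ry6 (0.42), Itga4 to Alkbh8 (0.33) and 9130008F23Rik (0.34), and Itga5 to Tec (0.30) and Fgd6 (0.32). Itgav lay nearest to B3gnt3 (0.20) and Zswim6 (0.23), and Itgb7 to Atxn1 (0.51) and Akr1c13 (0.61). Itgal lay farthest from its neighbours, Ptgs2 (1.10) and Dusp2 (1.17), followed by Itgax with Cd200r1 (0.74) and Egr2 (0.77). These distances are not scaled to how much a member itself varied, so a more variable member can lie farther. The SD of its log2 CPM over the libraries was 2.79 for Itgal, 1.98 for Itgax, 1.54 for Itgb7 and 1.27 for Itga5. It was 1.18 for Itgb2, 1.00 for Itgam, 0.62 for Itga4, 0.58 for Itgav and 0.30 for Itgb1.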

How the data were processed

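Transcripts of RAW264.7 clones were counted in 12 libraries. The authors deposited 1 table of whole-number counts per Ensembl gene for all libraries, on mm10 (GRCm38). The build is per the submitters' processing notes, and DESeq2 is named there without a version. Aligner, counter and strandedness: not given in the sources used here. Listed are genes with at least 5 counts in the second-highest library. Names and positions came from GENCODE M21, which left 178 IDs unnamed.

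In edgeR 4.0.16 (R 4.3.3), 12231 genes passed filterByExpr (252 did not), libraries were scaled by TMM, and a robust quasi-likelihood model of the 4 group means left 8 residual degrees of freedom. A Benjamini-Hochberg adjusted p below 0.05 made a call. CPM use TMM-scaled library sizes, and CPM per kb the union exon length. The common coefficient of variation was 23.6%. Shares were compared by exact permutation over libraries. The code was tested on simulated data.

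The labels give each clone 1 library per condition, which pairs libraries by clone. The correlation of a clone's deviations from its group means was 0.64 (WT 1), 0.70 (WT 2), 0.62 (WT 3), 0.32 (KO 1A), 0.29 (KO 1B) and 0.51 (KO 2). Between its medium library and the stimulated library of another clone of its genotype, the highest was -0.20, -0.37, -0.11, 0.27, 0.18 and -0.35, in that order. The fit with clone as a block, DESeq2 1.42.0, RLE size factors, library totals, no filter, KO 1A and 1B summed and each clone left out were alternatives. All members are named, and of each other list up to 3 called genes per comparison with the smallest p, plus the 2 genes most alike to each member. Members and lists were chosen with earlier results of these data known, and the alternatives were read for the pathway lists after the data were seen. In the list of linkers and kinases, 1 called gene is not reported here.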

Additional observations from a re-analysis of the deposited data

How the results depend on the processing

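Of 522 values of the 9 members under the alternatives, 477 kept their direction and their side of the threshold, 12 passed it newly, 21 no longer passed it and 12 changed sign. Under library totals 3 members rose in WT clones and 2 were lower in stimulated KO clones. Over all genes those calls were 1586 and 385. DESeq2 gave 4 lower in KO clones in medium, 2 lower under stimulation and 1 lower in the interaction. Over all genes DESeq2 gave 453, 797 and 13 lower, in that order. With KO 1A and 1B summed, 0 members fell in KO clones, 0 were higher and 0 lower in medium, and 0 were lower under stimulation. These fits have fewer libraries. Over all genes they called 2377 falling in KO clones, 3 higher and 13 lower in medium and 61 lower under stimulation. Leaving out 1 clone gave 0 to 1 falling in KO clones and 0 to 2 higher and 0 to 2 lower in medium. Under stimulation it gave 0 to 1 higher and 0 to 2 lower. Over all genes, leaving out 1 clone gave 2292 to 3720 falling in KO clones and 2 to 88 higher and 12 to 331 lower in medium. Under stimulation it gave 9 to 268 of all genes higher and 39 to 704 lower. With clone as a replicate block, 6 members rose in WT clones and 6 rose and 1 fell in KO clones. Apart from Itgax no member's call changed. That fit called 3649 of all genes higher in WT clones, and 3925 higher and 4157 lower in KO clones.

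The sign changed in values that did not pass the threshold, and the cause was not tested. The values that follow also cover Itga2b, Itga7, Itga10 and Itgb5. These are other integrin chain genes, and their values are not among those counted for the members above. Library totals gave -0.16 for Itga4, -0.16 for Itgb7 and -0.20 for Itga2b in the WT response, -0.36 for Itga10 in the KO response and 0.04 for Itgav in medium, which was 0.13 with KO 1A and 1B summed. The replicate block gave 0.00 for Itgav in the WT response. With 1 clone left out, the WT response ran from -0.04 to 0.36 for Itga4, from -0.27 to 0.21 for Itgav, from -0.23 to 0.41 for Itga2b and from -0.16 to 0.17 for Itga10, and the KO response of Itga10 from -0.02 to 0.04. The medium difference ran from -0.36 to 0.53 for Itgav, from -0.06 to 0.62 for Itga2b and from -0.12 to 0.48 for Itga10. The stimulated difference ran from -0.69 to 0.02 for Itgav, from -1.84 to 0.11 for Itga7, from -0.01 to 0.32 for Itga10 and from -0.29 to 0.38 for Itgb5, and the interaction from -0.00 to 0.37 for Itga7 and from -0.16 to 0.16 for Itga10. Where a clone was left out, the rest were assumed to vary alike. Low counts limit Itgax and Itgal in medium, Itgb7 in KO clones and Itga2b throughout.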
